A study of Mus musculus with 56 samples.

Results

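Genes for 10 transporters that move bile salts, phospholipids and organic anions across the membranes of the hepatocyte were followed in mouse liver RNA. The members (Abcb11, Abcb4, Abcb1a, Abcc2, Abcc3, Abcc4, Abcc6, Abcg2, Slc10a1 and Atp8b1) were chosen by gene name from the 23813 genes of the RNA table, with the first listed transcript standing for each gene. The list was drawn up with results of these libraries known, so the number of members that changed is a description and supports nothing. RNA-seq was available from 12 livers of male mice, 4 in each of 3 groups, together with 1 merged list of genomic regions carrying acetylated histone H3. The first group held hypothyroid wild-type (WT) mice, fed a diet low in iodine that contained PTU (propylthiouracil, a blocker of thyroid hormone synthesis). The second group held WT mice on the same PTU diet that were also injected with triiodothyronine (T3) during the last days, and were hyperthyroid. The third group held hypothyroid L-NCOR1ΔID mice on the PTU diet without T3, in which the liver expresses a form of the corepressor NCOR1 that lacks domains for contact with nuclear receptors. All 12 mice had thus received PTU. The mutant was kept on a mixed C57BL/6;129S background. The study's methods give a C57BL/6J;NIH Black Swiss background for TRβ mutant mice and their wild-type littermates. Which background the WT mice used for RNA had is not stated, so strain and genotype cannot be told apart. The study's methods call ages similar within a background, but its list of animals gives L-NCOR1ΔID mice a lower mean age than both WT groups and does not mark the mice used for RNA, so age and genotype cannot be told apart. Per the study's methods, libraries were sequenced on 1 or the other of 2 instrument models, and the part of the instrument in these values was not tested. Expression was given as RPKM, read numbers scaled by transcript length and by the aligned reads of the library, which can be compared between genes.

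Bile forms when hepatocytes pump bile salts and phospholipid across the canalicular membrane, the side that faces the bile canaliculus, and water follows. Bile salts that return from the gut are taken up from the blood at the opposite, basolateral side, and pumps on that same side can send bile salts and conjugated drugs back to the blood. The nuclear receptor FXR (Nr1h4) senses bile salts in the hepatocyte and is known to drive transcription of the canalicular bile salt pump. Thyroid hormone acts through its own nuclear receptors, which can recruit NCOR1 and a histone deacetylase when no hormone is bound. The study reported these corepressors without hormone at a subset of the receptor's binding sites only.

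Sequences upstream of the start were examined because acetylated regions covered the start sites of most members. RefSeq promoter sequences (GRCm38.p6) matched 7 of the 10 members, and each was placed in mm9 by an exact match. Promoters of Abcc3, Abcc6 and Atp8b1 were not used here. The promoter of Abcb11 is shown because it held the only close matches to an inverted repeat among the members, and those of Abcb4 and Abcg2 because these genes responded to T3 and the start shown lay in an acetylated region. Each line gives 250 bases that end directly before the start, and capitals mark the matches.

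Abcb11, mm9 chr2:69180674-69180923, minus strand: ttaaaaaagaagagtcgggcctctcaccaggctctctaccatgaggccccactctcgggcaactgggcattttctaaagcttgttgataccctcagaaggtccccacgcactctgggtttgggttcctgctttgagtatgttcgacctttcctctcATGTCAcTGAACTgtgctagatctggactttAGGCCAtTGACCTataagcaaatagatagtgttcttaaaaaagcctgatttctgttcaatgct

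Abcb4, mm9 chr5:8893471-8893720, plus strand: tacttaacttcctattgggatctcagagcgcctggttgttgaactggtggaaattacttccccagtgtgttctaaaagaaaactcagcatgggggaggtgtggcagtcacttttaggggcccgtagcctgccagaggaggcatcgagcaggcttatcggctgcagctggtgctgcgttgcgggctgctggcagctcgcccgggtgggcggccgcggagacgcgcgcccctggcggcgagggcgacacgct

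Abcg2, upstream of the second of its RefSeq starts, mm9 chr6:58546416-58546665, plus strand: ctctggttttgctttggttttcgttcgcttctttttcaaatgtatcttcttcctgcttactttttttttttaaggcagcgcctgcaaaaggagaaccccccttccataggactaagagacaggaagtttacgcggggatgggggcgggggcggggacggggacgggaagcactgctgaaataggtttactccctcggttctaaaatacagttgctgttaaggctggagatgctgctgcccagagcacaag

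The inverted repeat (IR1), the kind of site that FXR binds together with RXR, was searched as the hexamer AGGTCA, 1 base of any kind and the hexamer TGACCT. The direct repeat (DR4), the kind that thyroid hormone receptors bind, was searched as AGGTCA, 4 bases of any kind and AGGTCA again. Both strands were read, and since both motifs contain AGGTCA a hexamer can count for both. A match needed at least 10 of the 12 hexamer bases. Abcb11 held an IR1 with 11 of 12 bases at 63 to 51 bases before the start (AGGCCAtTGACCT) and another with 10 of 12 bases at 94 to 82 bases before it (ATGTCAcTGAACT). Of 32851 RefSeq promoters, 0.96% held an IR1 and 2.57% a DR4 by this measure. No DR4 match was found in the windows read for the members, where the best reached 9 of 12 bases, in Slc10a1. A match is a likeness of letters and not a measured binding site.

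Hormone status and genotype were read from genes outside the list. Thrsp, a hepatic T3 target, was at 209 to 490.0 RPKM in hypothyroid WT and at 847 to 2360 RPKM after T3. Dio1, which encodes a deiodinase and is a target of T3, rose from 0.719, 6.64, 57.7 and 8.98 RPKM in hypothyroid WT replicates 1 to 4 to 459 to 641 RPKM with T3. Hypothyroid WT replicate 3, with the highest Dio1 of its group, also had the highest Abcb11 and Abcb4 of its group, and the part of residual hormone in those values was not tested. Thrsp was highest in replicate 2 of that group, at 490.0 RPKM, and at 352 RPKM in replicate 3. Ncor1 was at 14.1 to 15.6 RPKM in hypothyroid WT and at 12.1 to 13.9 RPKM in L-NCOR1ΔID (log2 fold change -0.18 ± 0.07 SE, limma adjusted p = 0.20), and since the mutant still makes a transcript this level does not check the genotype. Estimated depth ran from 21300000 to 42900000 reads per library, which put at least 118 reads behind each value of a member. Replicates correlated at r = 0.955 or more across genes within each group.

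**Figure D1:**
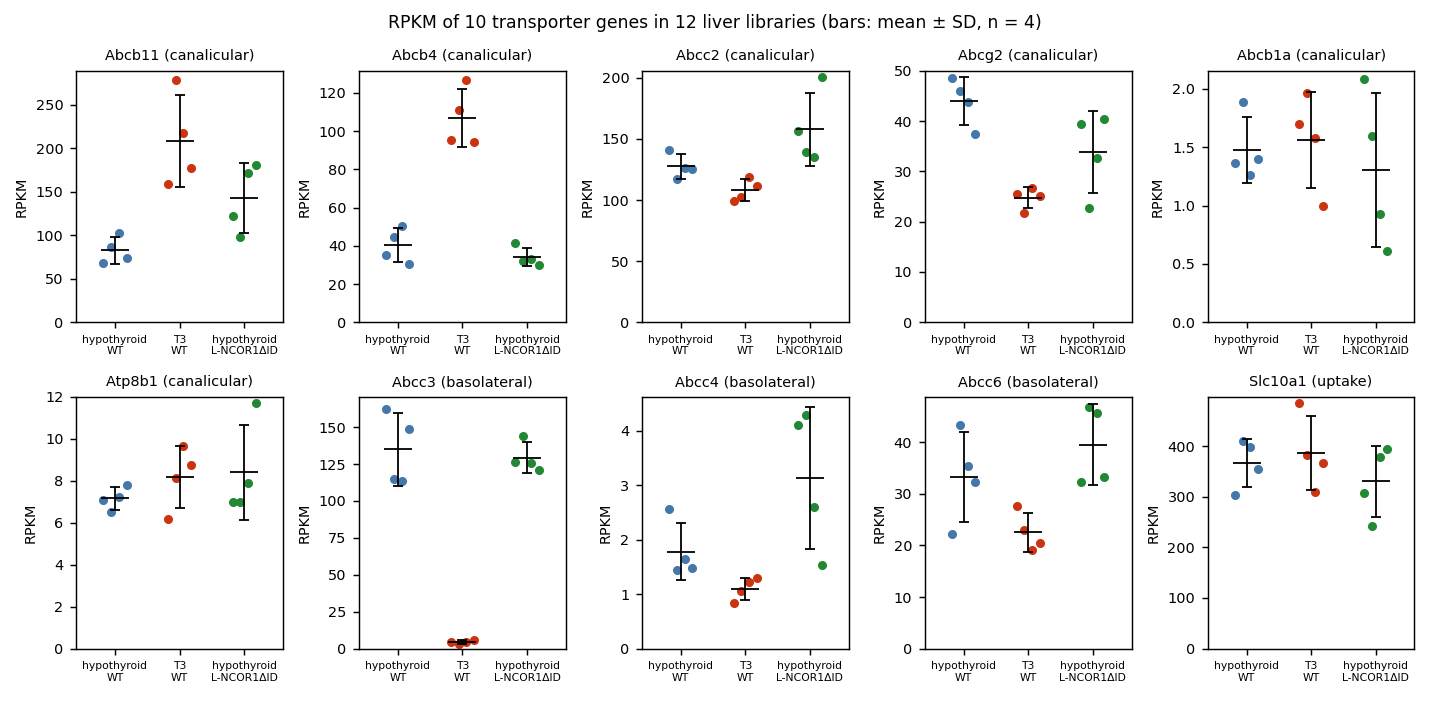
RPKM (linear axes from 0) of the 10 transporter genes in 12 libraries, with each point a liver, the horizontal line the mean and the bars 1 SD (n = 4 per group). Abcb11 and Abcb4 lie higher in all 4 T3 libraries than in any hypothyroid WT library, and Abcc3 falls to between 2.79 and 5.75 RPKM with T3 while it is at 114 RPKM or more in the other 8 libraries.

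T3 raised the canalicular bile salt and phospholipid pumps 2.52-fold and 2.66-fold, and lowered the basolateral pump Abcc3 30.4-fold and the canalicular pump Abcg2 1.77-fold (ratios of group means, n = 4 each). A call required an adjusted p under 0.01 in limma, fitted on log2(RPKM + 0.1) across 13941 genes. Among all of these, 24.5% were called higher and 7.71% lower with T3, and 2 members were called in each direction. The further requirement of a log2 fold change over 1 in size was met by Abcb11, Abcb4 and Abcc3, beside 8.28% of all genes higher and 3.47% lower. Over all genes the median was 0.23 on the log2 scale, against -0.09 for the 10 members, and the changes below are to be read relative to that shift. When libraries were scaled by the median of gene ratios, the share of calls that were higher went from 76.0% to 46.9%, while the 4 members kept their calls.

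Abcb11, the bile salt export pump, was at 68.1, 86.1, 102 and 73.5 RPKM in hypothyroid WT replicates 1 to 4 and at 159, 278, 217 and 177 RPKM in the T3 libraries. Each T3 library was above each hypothyroid one, and the log2 fold change was 1.32 ± 0.19 (SE, limma adjusted p = 5.2e-04). Abcb4, the floppase that delivers phosphatidylcholine to bile, was at 35.2, 44.8, 50.3 and 30.6 RPKM without hormone and at 95.4, 111, 127 and 94.1 RPKM with it. Its groups did not overlap, and the log2 fold change was 1.42 ± 0.16 (SE, limma adjusted p = 1.7e-04). Within a library, Abcb11 stood at 1.92 to 2.41 times Abcb4 in hypothyroid WT and at 1.67 to 2.50 times with T3, so that the ranges of this ratio overlapped while both genes rose.

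Abcc2, the canalicular export pump for bilirubin glucuronides and other conjugates, was among the members with little difference. It was at 141, 117, 126 and 125 RPKM in hypothyroid WT and at 98.8, 103, 118 and 112 RPKM with T3. The groups overlapped by a narrow margin, and the log2 fold change of -0.24 ± 0.08 (SE) missed the threshold (limma adjusted p = 0.041). Under scaling by the median of gene ratios it was -0.48 with an adjusted p of 0.0013 in limma.

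Abcg2, which exports sulfate conjugates and drugs into bile, was at 48.6, 45.9, 43.9 and 37.5 RPKM in hypothyroid WT and at 25.6, 21.7, 26.7 and 25.2 RPKM with T3. All T3 values were below all hypothyroid values, and Abcg2 fell by 0.82 ± 0.10 on the log2 scale (SE, limma adjusted p = 2.1e-04). Abcb1a, a P-glycoprotein that exports drugs, was far lower, at 1.26 to 1.89 RPKM without and 0.994 to 1.97 RPKM with T3. Its difference was 0.05 (95% confidence interval -0.42 to 0.52, limma adjusted p = 0.86) and turned to -0.17 under scaling by the median of gene ratios. Of all 50-base windows of the Abcb1a transcript, 17.0% also occur in other genes, most in its neighbour Abcb1b, so its level is uncertain. For Abcb4 that share was 3.43%, and for the other 8 members 0%.

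Atp8b1, a flippase that keeps the lipid order of the canalicular membrane, was at 7.07, 6.52, 7.24 and 7.81 RPKM in hypothyroid WT and at 6.20, 8.15, 9.64 and 8.76 RPKM with T3. The groups overlapped, and the difference of 0.18 on the log2 scale (95% confidence interval -0.12 to 0.47, limma adjusted p = 0.29) turned to -0.061 under scaling by the median of gene ratios. Tmem30a, the partner subunit that such flippases need to reach the membrane, rose from 42.5 ± 5.18 to 90.8 ± 5.21 RPKM (SD, n = 4 each, log2 fold change 1.10, limma adjusted p = 3.6e-05).

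Abcc3, the basolateral pump for glucuronides and bile salts, showed the largest difference of the 10 members. It was at 162, 115, 114 and 149 RPKM in hypothyroid WT, the level of Abcc2 in the same livers, and at 4.46, 2.79, 4.73 and 5.75 RPKM with T3. The lowest hypothyroid value was many times the highest T3 value, and Abcc3 fell by 4.92 ± 0.21 on the log2 scale (SE, limma adjusted p = 2.4e-06). In the order of group means, Abcc3 stood at rank 2 of the 10 members in hypothyroid WT, with a range that overlapped that of Abcc2 at rank 3. With T3 it stood at rank 8, with a range apart from those of its neighbours in the order, Atp8b1 above and Abcb1a below. Within a library, Abcc2 was 0.841 to 1.11 times Abcc3 in hypothyroid WT and 19.4 to 36.8 times with T3, a ratio that does not depend on how libraries are scaled.

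**Figure D2:**
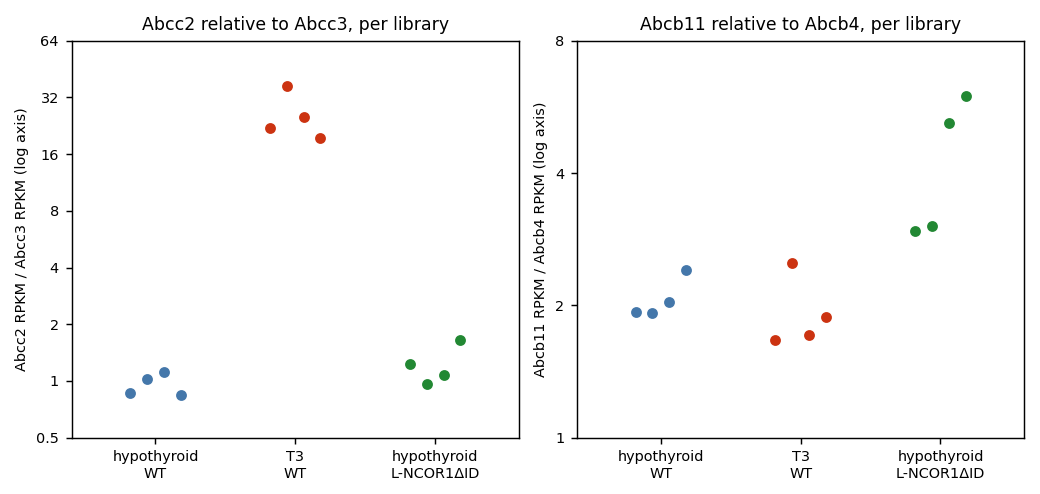
Ratio of RPKM within each library (log axes) of the canalicular pump Abcc2 to the basolateral pump Abcc3, and of Abcb11 to Abcb4, by group, with each point a liver. The Abcc2 to Abcc3 ratio lies between 0.841 and 1.66 in both hypothyroid groups and at 19.4 to 36.8 with T3, while the Abcb11 to Abcb4 ratio is 2.95 to 6.00 in L-NCOR1ΔID and at most 2.50 in the WT libraries. The ratios were not tested, and neither Abcb11 nor Abcb4 was called in L-NCOR1ΔID.

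Abcc4 and Abcc6, further pumps of the basolateral side, missed the threshold. Abcc4, which exports bile salts together with glutathione, was at 2.56, 1.45, 1.64 and 1.48 RPKM in hypothyroid WT and at 0.829, 1.07, 1.22 and 1.29 RPKM with T3. These groups did not overlap, and the log2 fold change was -0.63 ± 0.20 (SE, limma adjusted p = 0.030), with a call only under scaling by the median of gene ratios (-0.85, limma adjusted p = 0.0088). Abcc6, through which hepatocytes release ATP, was at 22.2, 43.4, 35.4 and 32.3 RPKM in hypothyroid WT and at 27.7, 23.1, 19.1 and 20.5 RPKM with T3. Hypothyroid WT replicate 1 lay inside the T3 range, and the log2 fold change was -0.53 ± 0.20 (SE, limma adjusted p = 0.047). Without that library it was -0.71 and passed the threshold (limma adjusted p = 0.0063).

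Slc10a1, the sodium-dependent bile salt uptake carrier, was the most abundant member in each group. It was at 304, 410.3, 398 and 355 RPKM in hypothyroid WT and at 485, 382, 310.3 and 366 RPKM with T3. The groups overlapped, and the difference was 0.06 on the log2 scale (95% confidence interval -0.27 to 0.40, limma adjusted p = 0.74), turning to -0.17 under scaling by the median of gene ratios. The ratio of Abcb11, which sends bile salts out, to Slc10a1, which brings them in, was 0.207 to 0.257 in hypothyroid WT and 0.328 to 0.729 with T3. It was 0.397 to 0.458 in L-NCOR1ΔID.

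**Figure D3:**
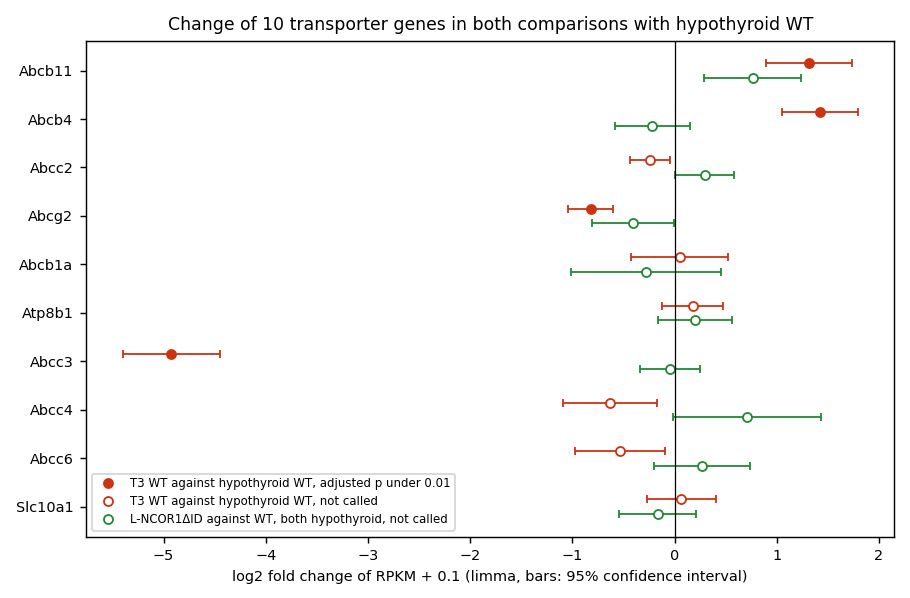
Log2 fold change (limma, RPKM + 0.1) of the 10 transporter genes with T3 and in L-NCOR1ΔID, each against hypothyroid WT, where bars are 95% confidence intervals and filled points have an adjusted p under 0.01. The called members are Abcb11, Abcb4, Abcg2 and Abcc3, all in the T3 comparison, with Abcc3 at -4.92.

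Whole liver was sequenced, so fewer cells of a type and less RNA per cell cannot be told apart. All 5 Kupffer cell markers (Clec4f, Vsig4, Adgre1, Cd5l and Marco) were called higher with T3, and their summed level went from 35.5 to 50.1 RPKM in hypothyroid WT to 117 to 197 RPKM. Blood markers rose in 3 of 5 genes (61.0 to 120.3 RPKM summed, then 140.2 to 210.2), endothelial markers in 2 of 5 (36.8 to 54.6, then 54.6 to 64.5) and stellate cell markers in 2 of 4 (42.9 to 60.3, then 71.0 to 80.8). Of 4 hepatocyte markers, Alb and Ttr were called lower and Apoa1 and Serpina1c were not called (36330 to 48110 RPKM summed, then 18110 to 26350). Cholangiocyte markers gave 1 called higher, 1 lower and 3 not called (11.96 to 16.1 RPKM summed, then 10.4 to 19.2), with Cftr near 0 and not tested. The part of these shifts in the levels of the transporters was not tested.

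In hypothyroid L-NCOR1ΔID livers no member passed the threshold against hypothyroid WT. Among 13790 genes tested, 0.725% were called higher and 0.544% lower. At an unadjusted p under 0.05 there were 3 members, Abcb11, Abcc2 and Abcg2, beside 20.5% of all genes. This comparison shares its WT libraries with that of T3, so values from both are set side by side only. None of the cell type markers was called by limma in L-NCOR1ΔID. Summed Kupffer cell markers were at 42.5 to 115 RPKM, with a highest value above the 50.1 RPKM of hypothyroid WT. The sums were 43.6 to 55.8 RPKM for endothelial, 56.0 to 89.5 for stellate cell, 69.5 to 154 for blood, 11.4 to 19.4 for cholangiocyte and 30730 to 33680 for hepatocyte markers, of which the last lay below hypothyroid WT. Lyve1 (1.80), Col1a1 (2.01), Cd3e (-2.02) and Alb (-0.48) did not overlap with hypothyroid WT (log2 fold changes, limma adjusted p = 0.042, 0.071, 0.027 and 0.14). Others of the same lists went the other way, with Kdr at -0.12, Clec4g at -0.24, Reln at -0.25 and Apoa1 at 0.03. So did Hba-a1, Hbb-b1 and Ptprc beside Cd3e, at 0.18, 0.15 and 0.57. Marco differed by 3.16 (limma adjusted p = 0.10). The share of all genes that did not overlap was not counted, so the lack of overlap of single markers has nothing to be read against. The part of these markers in the levels of the transporters was not tested.

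Abcb11 was at 122, 97.5, 172 and 181 RPKM in L-NCOR1ΔID replicates 1 to 4. Replicate 2 lay below the highest hypothyroid WT value of 102 RPKM and the others lay above it, and the log2 fold change was 0.76 ± 0.21 (SE, 95% confidence interval 0.29 to 1.24, limma adjusted p = 0.078). Dio1 in the same 4 libraries was at 0.567, 0.591, 20.9 and 12.1 RPKM, so that the pair of libraries with the higher Abcb11 also had the higher Dio1, whose part was not tested. Thrsp was ordered otherwise, at 1060, 454, 1081 and 779 RPKM in replicates 1 to 4. Without WT replicate 3 the log2 fold change of Abcb11 was 0.87 (limma adjusted p = 0.089). Abcb4 was at 41.3, 32.3, 33.1 and 30.1 RPKM, within or just below the hypothyroid WT range (-0.22, 95% confidence interval -0.59 to 0.15, limma adjusted p = 0.49). Abcb11 was therefore 2.95 to 6.00 times Abcb4 within these libraries, above the highest ratio of 2.50 in the WT libraries. Neither gene was called in L-NCOR1ΔID, the ratio was not tested, and ratios of other gene pairs were not counted beside it.

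Abcc3 was at 126, 144, 126 and 121 RPKM in L-NCOR1ΔID, inside the hypothyroid WT range. The difference of -0.05 had a 95% confidence interval of -0.34 to 0.25 (limma adjusted p = 0.88). Abcc2 was at 156, 139, 135 and 201 RPKM (0.29, 95% confidence interval 0.00 to 0.58, limma adjusted p = 0.24). Abcg2 was at 39.4, 22.6, 32.7 and 40.4 RPKM, with replicate 2 in the range of the T3 libraries and the others above it (-0.41, 95% confidence interval -0.81 to -0.01, limma adjusted p = 0.24). Abcc4 was at 4.10, 4.30, 2.59 and 1.53 RPKM, with 3 of 4 libraries above each hypothyroid WT value, and its 95% confidence interval was wide (0.71, -0.01 to 1.44, limma adjusted p = 0.25). The remaining members Abcb1a, Abcc6, Slc10a1 and Atp8b1 had log2 fold changes between -0.28 and 0.27 and adjusted p of 0.51 to 0.67 in limma.

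Set directly against L-NCOR1ΔID, hyperthyroid WT livers had more Abcb4 and less Abcc3, Abcc4 and Abcc6. Hormone and genotype differ together here and cannot be told apart. Among 14017 genes tested, 15.5% were higher with T3 and 5.7% lower, and scaling by the median of gene ratios moved the share of calls that were higher from 73.1% to 44.8%. Abcb4 differed by 1.64 ± 0.13 and Abcc3 by -4.88 ± 0.19 on the log2 scale (SE, limma adjusted p = 4.8e-05 and 1.8e-06). Abcc4 averaged 1.10 ± 0.20 RPKM with T3 and 3.13 ± 1.31 RPKM in the mutant (SD, n = 4 each, log2 fold change -1.34, limma adjusted p = 0.0087), a call that, when single libraries were removed, held in 1 of 8 refits, that without L-NCOR1ΔID replicate 4 (adjusted p at most 0.027 in limma over all refits). Abcc6 averaged 22.6 ± 3.78 and 39.6 ± 7.80 RPKM (-0.80, limma adjusted p = 0.0049), a call that was lost without T3 replicate 2, 3 or 4 or L-NCOR1ΔID replicate 2 or 3 (adjusted p of 0.012 to 0.017 in limma). Abcb11 differed by 0.55 (95% confidence interval 0.02 to 1.08, limma adjusted p = 0.092) and Abcg2 by -0.41 (-0.81 to -0.02, limma adjusted p = 0.091), and neither was called. Abcg2 passed the threshold without L-NCOR1ΔID replicate 2 (-0.59, limma adjusted p = 0.0050). Abcc2 did not overlap between these groups and missed the threshold (-0.53, 95% confidence interval -0.84 to -0.23, limma adjusted p = 0.013), but was called in 2 of 17 refits, with all 12 libraries in 1 fit (limma adjusted p = 0.0035) and under scaling by the median of gene ratios (-0.73, limma adjusted p = 0.0038).

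Other transporters and the receptors known to act on them were counted from lists. Among all genes tested, 24.5% were called higher and 7.71% lower with T3, and 0.725% and 0.544% in L-NCOR1ΔID. The counts from each list, here and below, are to be read beside these shares. Of 13 genes for uptake and other basolateral transport, 11 were expressed enough to test, and T3 raised 3 and lowered 3. Under scaling by the median of gene ratios it raised 2 and lowered 5. Slc51b, a subunit of a basolateral bile salt exporter, was at 0.00, 0.400, 0.355 and 0.216 RPKM in hypothyroid WT and at 5.68, 3.38, 1.36 and 5.70 RPKM with T3 (log2 fold change 3.63, limma adjusted p = 0.0010, or 1.91 with a pseudocount of 1 and 4.69 with 0.01), while Slc51a, the subunit it needs, is listed at 0 in all 8 WT libraries. The prostaglandin carrier Slco2a1 fell from 16.3 ± 2.03 to 3.51 ± 1.07 RPKM (SD, n = 4 each, -2.22, limma adjusted p = 3.9e-05). Slco1b2 averaged 466 RPKM in hypothyroid WT and 300.4 with T3 (-0.64, limma adjusted p = 0.0018). Slco2b1 was also called lower (-0.63, limma adjusted p = 0.0074). Of the Slc10 family, to which the uptake carrier Slc10a1 belongs, Slc10a5 and Slc10a7 rose by 0.53 and 0.76 on the log2 scale (limma adjusted p = 0.0015 and 0.0012), where Slc10a5 was 0.30 and not called under scaling by the median of gene ratios (limma adjusted p = 0.037). In L-NCOR1ΔID only the organic anion carrier Slco1a4 was called, higher in all 4 libraries at 38.3 to 53.5 RPKM against 11.1 to 21.1 (1.48, limma adjusted p = 0.0038). The call was lost without WT replicate 3 or 4 or L-NCOR1ΔID replicate 1 or 3 (adjusted p of 0.012 to 0.016 in limma).

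All 17 further efflux and canalicular genes were tested. T3 raised 5 and lowered 1, or 4 and 2 under scaling by the median of gene ratios. In L-NCOR1ΔID 3 were called, all higher. Abcg5 and Abcg8, the paired canalicular exporters of cholesterol, were called in both comparisons. Abcg5 averaged 42.2 ± 5.50 RPKM in hypothyroid WT, 110.1 ± 10.9 with T3 and 92.2 ± 8.31 in L-NCOR1ΔID (SD, n = 4 each), and Abcg8 33.2 ± 5.05, 96.8 ± 7.93 and 70.5 ± 11.4 RPKM. For Abcg5 the limma adjusted p was 3.0e-05 with T3 and 9.5e-04 in the mutant, and for Abcg8 1.9e-05 and 0.0042. The call of Abcg8 in the mutant was lost without WT replicate 1, 2 or 4 or L-NCOR1ΔID replicate 2 or 3 (adjusted p of 0.011 to 0.017 in limma, log2 fold change 0.999 to 1.12). Abcb1b, the P-glycoprotein next to Abcb1a and Abcb4 on chromosome 5, was at 0.214 to 0.298 RPKM in hypothyroid WT and at 0.779 to 0.923 RPKM in L-NCOR1ΔID (log2 fold change 1.39, limma adjusted p = 0.0014, or 0.55 with a pseudocount of 1), whereas Abcb1a overlapped. With T3 the same gene was at 0.257 to 0.414 RPKM and was not called (limma adjusted p = 0.30). The biliary copper pump Atp7b fell by 0.95 on the log2 scale with T3 (limma adjusted p = 2.8e-04).

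Among 17 receptors and regulators, 4 rose and 4 fell with T3, or 2 and 7 under scaling by the median of gene ratios. In L-NCOR1ΔID, 1 rose and 2 fell. FXR (Nr1h4) was at 58.3 to 62.4 RPKM in hypothyroid WT, 40.5 to 55.9 with T3 and 37.2 to 41.0 in L-NCOR1ΔID, and was called lower in the mutant (log2 fold change -0.62, limma adjusted p = 8.8e-04) and not with T3 (-0.33, limma adjusted p = 0.023). Set directly against each other, T3 and mutant livers differed in Nr1h4 by 0.29 (95% confidence interval 0.05 to 0.53, limma adjusted p = 0.061), which was not called. Abcb11, which FXR is known to activate, averaged 208 ± 52.9 RPKM with T3 and 143 ± 39.9 RPKM in L-NCOR1ΔID, against 82.5 ± 15.2 RPKM in hypothyroid WT (SD, n = 4 each). Nr0b2 (SHP), another gene that FXR is known to activate and one named after its values were seen, was at 27.1 to 33.9 RPKM in hypothyroid WT and fell to 9.09 to 19.7 RPKM with T3 (-1.11, limma adjusted p = 0.0025). In L-NCOR1ΔID it was at 26.6 to 48.7 RPKM and was not called (0.32, limma adjusted p = 0.35). The part of FXR in the levels of Abcb11 and Nr0b2 was not tested. CAR (Nr1i3), the receptor for drugs and known activator of Abcc3 among other genes, was at 151 to 201 RPKM in hypothyroid WT, at 37.2 to 56.5 with T3 and at 73.5 to 87.8 in L-NCOR1ΔID. It was called lower in both comparisons with hypothyroid WT (-1.97 and -1.07, limma adjusted p = 2.3e-05 and 0.0014), and Abcc3 in that of T3. Set directly against the mutant, T3 livers had less Nr1i3 (-0.895, limma adjusted p = 0.0012) and, as given above, less Abcc3. The part of CAR in the level of Abcc3 was not tested. The estrogen receptor Esr1 and the factor Cebpb rose with T3 by 2.37 and 2.31 (limma adjusted p = 1.9e-04 and 2.7e-04), Cebpb also in the mutant by 1.32 (limma adjusted p = 0.0026; 0.012 without WT replicate 4 or L-NCOR1ΔID replicate 3), and the stress factor Nfe2l2 fell by 0.53 with T3 (limma adjusted p = 4.6e-04).

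Of 14 genes for bile acid synthesis and conjugation, T3 raised 6 and lowered 1. Under scaling by the median of gene ratios it raised 5 and lowered 2. None of the 14 was called in L-NCOR1ΔID by limma. In L-NCOR1ΔID, 7 had an unadjusted p under 0.05 in limma, beside 20.5% of all genes. Of these, Amacr, Cyp7a1, Cyp7b1, Cyp8b1 and Hsd17b4 were lower and Cyp27a1 and Slc27a5 higher (limma adjusted p of 0.042 to 0.22). With T3 the oxysterol hydroxylase Cyp39a1 rose from 6.72 ± 4.44 to 77.2 ± 12.7 RPKM (SD, n = 4 each, log2 fold change 3.76, limma adjusted p = 2.3e-04). Baat, which joins bile acids to taurine to give the form that Abcb11 exports, rose from 93.6 ± 6.88 to 147 ± 9.62 RPKM (0.65, limma adjusted p = 2.3e-04), and the thioesterase Acot8 rose by 0.63 (limma adjusted p = 8.3e-04), values that were 0.41 and 0.39, still called, under scaling by the median of gene ratios. Scp2, needed to shorten the sterol side chain, fell from 772 ± 72.5 to 342 ± 29.5 RPKM (-1.17, limma adjusted p = 4.6e-05).

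**Figure D4:**
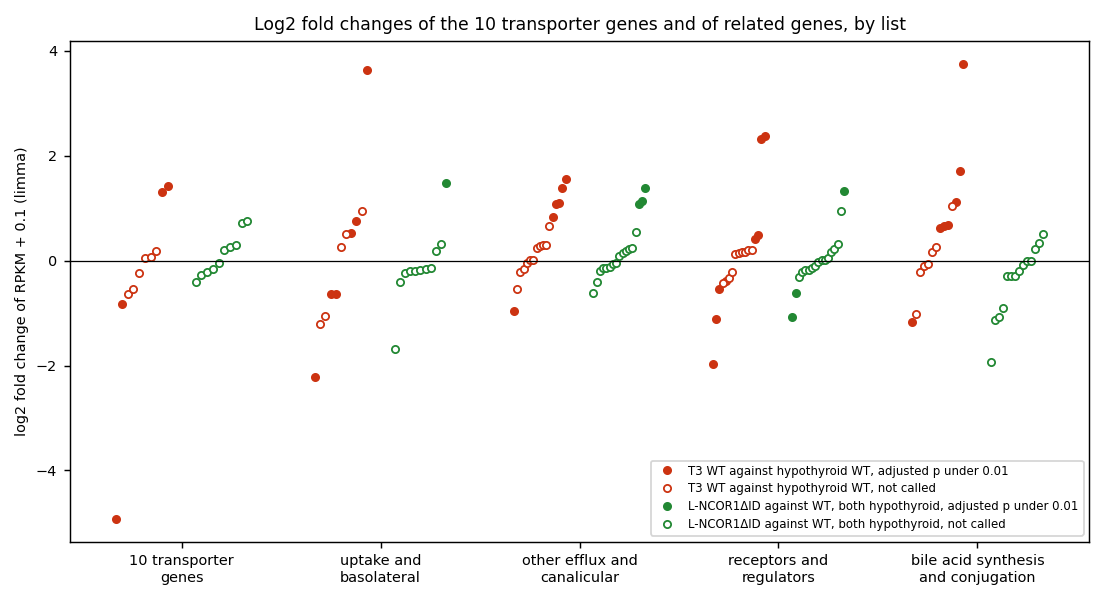
Log2 fold changes (limma, RPKM + 0.1) of the 10 transporter genes and of 4 lists of related genes, with T3 and in L-NCOR1ΔID, each against hypothyroid WT, where each point is a gene and filled points have an adjusted p under 0.01. Abcc3 at -4.92 lies below every other gene shown, and fewer points are filled for L-NCOR1ΔID than for T3 in each list.

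The deposited list of 37200 acetylated regions merges regions found for H3K27Ac or H3K9Ac in hypothyroid or hyperthyroid WT liver. It gives positions and lengths in mm9 and no level, so it shows where acetylation was found and not whether T3 changed it. The GENCODE start site of 9 of the 10 members lay in such a region, beside 86.0% of the 12314 tested genes with a position. Those 9 regions had a median length of 11865 bp, against 3987.5 bp for all genes with a start in a region. The members were not set beside genes of like expression, so this length is not shown to be particular to them. Within 100 kb of their starts the members had a median of 7 regions, as did all genes.

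The longest start region was that of Slc10a1, at 34512 bp (mm9 chr12:82044640-82079151), which covered the whole gene of 14800 bp and was longer than 99.8% of all regions. Abcc2 followed with 28596 bp (chr19:43848871-43877466) and Abcc3 with 25775 bp (chr11:94230080-94255854), which reached from the promoter into the introns. Of these 3 genes, Slc10a1 and Abcc2 were not called with T3 and Abcc3 fell. Abcb4 lay in a region of 13550 bp (chr5:8892470-8906019) and Abcb11 in one of 8720 bp (chr2:69173605-69182324). Abcb1a, the lowest expressed of the canalicular pumps, had a region of only 1417 bp (chr5:8659568-8660984) at its GENCODE start and 3 regions within 100 kb of it. The RefSeq start of Abcb1a, whose promoter was read for motifs, lay 92986 bp from the GENCODE start. It was in no region, at 54938 bp from the nearest.

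By GENCODE start sites, Abcg2 was the exception. Its first annotated start lay 11154 bp from the nearest region, but the second RefSeq start, whose upstream sequence is shown above, lay in a region of 1805 bp (chr6:58545671-58547475), and the third in a region of 4355 bp (chr6:58588190-58592544). Of the 68 regions within 100 kb of a member, 31 had their centre in an intron of that member, 2 in an exon and 35 outside the gene.

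Within those regions an IR1 with at least 11 of 12 bases was found at the start of Abcb11, where it is the promoter match read on the other strand, and in 2 regions near Abcb4, of which the first lies in an intron and the second beyond the end of the gene. A further match of this quality lay in an intronic region of Atp8b1, a member that was not called with T3, and its sequence is not printed. The 3 others are shown so that the matches at Abcb11 and Abcb4 can be compared with the promoter match.

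Abcb11, start region, mm9 chr2:69180724-69180736, plus strand: AGGTCAaTGGCCT

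Abcb4, intron, mm9 chr5:8928745-8928757, plus strand: AGGTCAaTGATCT

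Abcb4, downstream, mm9 chr5:8997873-8997885, plus strand: AGGTCAaTGCCCT

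Of 1170 regions within 10% of the length of the Abcb11 start region, 3.8% held an IR1 match of that kind. For the start regions of the members this share ran from 0.7% (Abcb1a) to 14.8% (Slc10a1). It was not computed for the Abcb4 and Atp8b1 regions that held a match. All regions near the members were searched, so these matches are not shown to exceed what such a search gives. The start region of Abcb4 held no IR1 match of that kind, with at best 9 of 12 bases. That of Abcc3 reached 10 of 12 for both IR1 and DR4. A DR4 with 11 of 12 bases was found near 1 member, in a region upstream of Atp8b1.

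**Figure D5:**
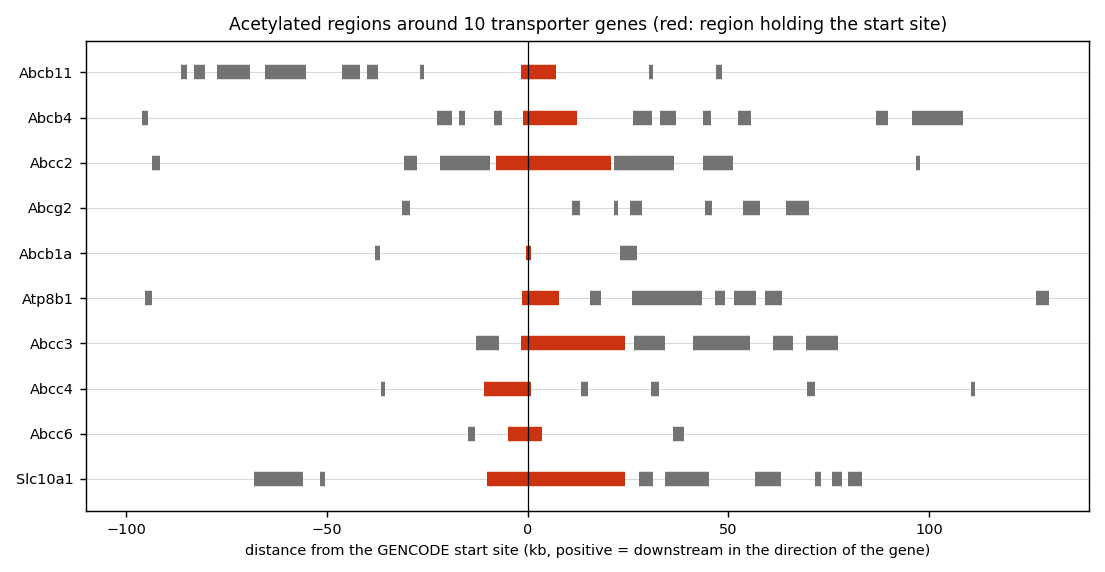
Acetylated regions around the GENCODE start sites of the 10 transporter genes, drawn to scale in kb from the start in the direction of the gene, with the region that holds the start in red and the others in grey. The red blocks of Slc10a1, Abcc2 and Abcc3 are the longest, Abcg2 has none at its first start, and Abcb1a has 3 regions in all.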

How the data were processed

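RNA-seq libraries from 12 livers and 1 list of acetylated regions were used; the ChIP-seq signal per sample was not analysed here. RNA values are RPKM, which the authors made by alignment to mm9 with STAR and quantification of RefSeq transcripts with HOMER, per the labels and the study's methods; the submitters' notes also name DESeq2, and versions are not given in the sources used here. The deposited regions are positions only. Of 31370 rows, 1 carried no gene name (at most 0.00079% of summed RPKM) and was left out, and the table has 0 unused columns of samples.

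Counts were not used, and depth (21300000 to 42900000 reads per library) was estimated from the steps between low RPKM values and GENCODE lengths. Precision is limited by 4 mice per group and, for low genes, by reads. RPKM values plus 0.1 were put on the log2 scale, and the 8 libraries of each comparison were fitted with limma (version 3.58.1, in R 4.3.3; eBayes with trend). A gene entered if 4 or more of these libraries reached 0.1 RPKM, and p-values were adjusted by Benjamini-Hochberg over all genes tested. Fold changes on this scale understate those of low genes. The fit was tested on simulated data. Regions, motifs and figures used GENCODE M1, Python 3.11.15, numpy 2.4.6, pandas 2.3.3 and matplotlib 3.10.9. Regions were counted within 100 kb.

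The members and the lists were chosen with earlier results of these data known. All members were named, and from each list at most the 4 called genes with the smallest adjusted p, besides genes set beside a member for their role and the check genes Thrsp, Dio1 and Ncor1. The bile acid synthesis genes at an unadjusted p under 0.05 in L-NCOR1ΔID were named as well. So were Slco1b2 and Slco2b1, to give each gene of the uptake list called lower with T3. Alternatives were another pseudocount or filter, all 12 libraries in 1 fit, a replicate block, no trend, another scaling, the transcript with the highest mean, other thresholds or distances, and each library left out.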

Additional observations from a re-analysis of the deposited data

Results flagged for a closer look

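Looked at were 96 groups of 4 libraries, for the members, the genes named by adjusted p and the check genes. Of these, 1 had a library far from the others on the log2 scale. Slco1a4, an organic anion carrier, was at 53.5 RPKM in L-NCOR1ΔID replicate 2 and at 38.3 to 40.0 RPKM in the other 3 libraries of that group. Chance gives about 1 such library in 20 groups. None of the 30 groups of the 10 transporter genes had one.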

How the results depend on the processing

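The rise of Abcb11 and Abcb4 and the fall of Abcc3 and Abcg2 with T3 kept direction and call in all 17 refits. The number of members called with T3 was 7 at an adjusted p under 0.05 (2 higher, 5 lower), a threshold met by 6880 of 13941 genes tested. Against L-NCOR1ΔID it was 2 with the replicate block and 2 to 4 without 1 library, with 2 without T3 replicate 2, 3 or 4 or L-NCOR1ΔID replicate 3, where Abcc4 and Abcc6 lost their calls; the cause was not tested. The labels do not say whether replicate numbers mark pairs or batches. Deviations of same-numbered libraries correlated at -0.21 to 0.27 and those of other-numbered ones at -0.31 to 0.32. With 4 libraries per group, and deviations taken from their own means, this cannot decide whether same-numbered libraries share processing. With the replicate block the lists in L-NCOR1ΔID gave 0 for uptake and basolateral, 1 for other efflux and canalicular and 1 for receptor and regulator genes, where Slco1a4, Abcb1b, Abcg8, Nr1h4 and Cebpb lost their calls (limma adjusted p of 0.032, 0.019, 0.011, 0.016 and 0.019), and the block changed no other count by that much. Without 1 library the uptake and basolateral count in L-NCOR1ΔID was 0 to 1. Among all genes the block took the calls in L-NCOR1ΔID from 100 higher and 75 lower to 20 and 25, and against L-NCOR1ΔID from 2176 and 799 to 1152 and 490, and scaling by the median of gene ratios took the T3 calls from 3413 and 1075 to 1716 and 1941 and those against L-NCOR1ΔID to 1048 and 1293. Without 1 library the calls among all genes in L-NCOR1ΔID were 36 to 110 higher and 28 to 77 lower, and leaving out any 1 of the 8 libraries other than L-NCOR1ΔID replicate 4 moved at least 1 of these counts by over 1.5 times. Members had a median of 4 regions within 50 kb and 13.5 within 200 kb, which follows from the distance. Signs reversed for members that were not called. With T3, scaling by the median of gene ratios gave -0.17 for Abcb1a and Slc10a1 and -0.061 for Atp8b1. Without 1 library, Abcb1a with T3 ranged from -0.068 (without T3 replicate 2; -0.015 without WT PTU replicate 3) to 0.24, Slc10a1 with T3 from -0.052 (without T3 replicate 1; -0.023 without WT PTU replicate 1) to 0.16, Abcc3 in L-NCOR1ΔID from -0.12 to 0.050 (without WT PTU replicate 1; 0.0081 without replicate 4), and Atp8b1 with T3 against L-NCOR1ΔID from -0.11 to 0.15 (without L-NCOR1ΔID replicate 4; 0.10 without T3 replicate 1). With 4 mice per group, little can be shown for members with wide intervals, such as Abcc4.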
